A study of Mus musculus with 19 samples.

Results

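Elastic fibres give tissues their recoil. They form when tropoelastin, the soluble product of Eln, is laid onto a scaffold of fibrillin microfibrils, is brought there by fibulins and other linking proteins, and is cross-linked by lysyl oxidases. Fibroblasts, smooth muscle cells and endothelial cells are known to make these proteins, and microfibrils also hold TGF-β family growth factors in the matrix. Transcripts of 10 such genes were followed here in epithelium and mesenchyme of the embryonic urogenital sinus and skin: Eln, Fbn1, Fbn2, Mfap2, Mfap4, Mfap5, Fbln1, Fbln5, Ltbp2 and Emilin1. They were chosen by name, with earlier results of these data known. Every probe set whose annotation gives that gene symbol alone was read. Of the 10 genes 9 have such a probe set, and they are 9 of 18193 genes with such a probe set on the array. They hold 17 of the 45037 probe sets that are not controls. Fbn1 has none and was not analysed here. All 17 passed the filter on low values.

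The 19 arrays measured total RNA of C57BL/6 mouse embryos at embryonic day 16, in 4 groups: 5 samples of urogenital sinus mesenchyme (UGM), 6 of urogenital sinus epithelium (UGE), 4 of dermis and 4 of epidermis. UGM and UGE were parted with trypsin, and the back skin was kept overnight in dispase in the cold before dermis and epidermis were pulled apart, so site and separation method cannot be told apart. Each sample is a biological replicate made from a pool of embryos, and skin and urogenital sinus came from the same embryos, so 1 embryo may have given tissue to several groups. The labels do not give the sex of the embryos.

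Values are given as log2 of the deposited intensity, and the lower quartile of the arrays lies at 4.70 to 4.92 on this scale. Differences are log2 fold changes ± SE, with UGM minus UGE and dermis minus epidermis as the comparisons of mesenchyme with epithelium. Adjusted p-values come from limma with Benjamini-Hochberg correction over 41549 probe sets, and calls need an adjusted p under 0.01 and a change of more than 2-fold. A gene was read from its brightest probe set, and levels were compared between tissues, never between genes. In pieces of tissue, fewer cells of a type and less RNA per cell cannot be told apart.

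The labels were checked against marker lists. Of 14 epithelial markers (such as Epcam and Krt5) 14 were lower in UGM than in UGE and 10 lower in dermis than in epidermis. Of 13 mesenchymal markers (such as Twist1 and Pdgfra) 13 were higher in UGM and 12 in dermis. Transcripts of the other compartment were not equally low in the 4 groups, and the part of the separation in this was not tested. Summed intensity of the epithelial list was 2079 to 6534 in UGM against 105073 to 115016 in UGE, and 32590 to 63506 in dermis against 86108 to 107838 in epidermis. Summed intensity of the mesenchymal list was 82468 to 87674 in UGM, 2885 to 19208 in UGE, 84194 to 108039 in dermis and 18515 to 37667 in epidermis. Among the UGE samples replicates 2 and 3 were the highest, at 18894 and 19208, followed by replicate 1 at 7446.

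Elastic fibre and microfibril genes were higher in mesenchyme than in epithelium at both sites. Between UGM and UGE 8 of the 9 genes were called higher and 0 lower, where 7.4% of all tested probe sets were called higher and 5.85% lower (13.3% in all). Between dermis and epidermis 9 of 9 were called higher, against 7.6% of all probe sets (6.07% were lower, 13.7% in all). These shares are over all probe sets, while each of the 9 genes was read from its brightest. Of all 17 probe sets of these genes 13 were called higher in UGM and 12 in dermis. The median log2 fold change of the 9 genes was 2.65 in the urogenital sinus and 3.05 in the skin, and the medians over all probe sets were -0.06 and -0.05. In both comparisons the 2 groups did not overlap for any of the 9 genes, which held for 25.3% of all probe sets between UGM and UGE and for 33.1% between dermis and epidermis. The exception among the calls is Ltbp2, which lay lower in UGM than in UGE. With UGE replicates 2 and 3 left out, 8 genes were again called higher in UGM.

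**Figure D1:**
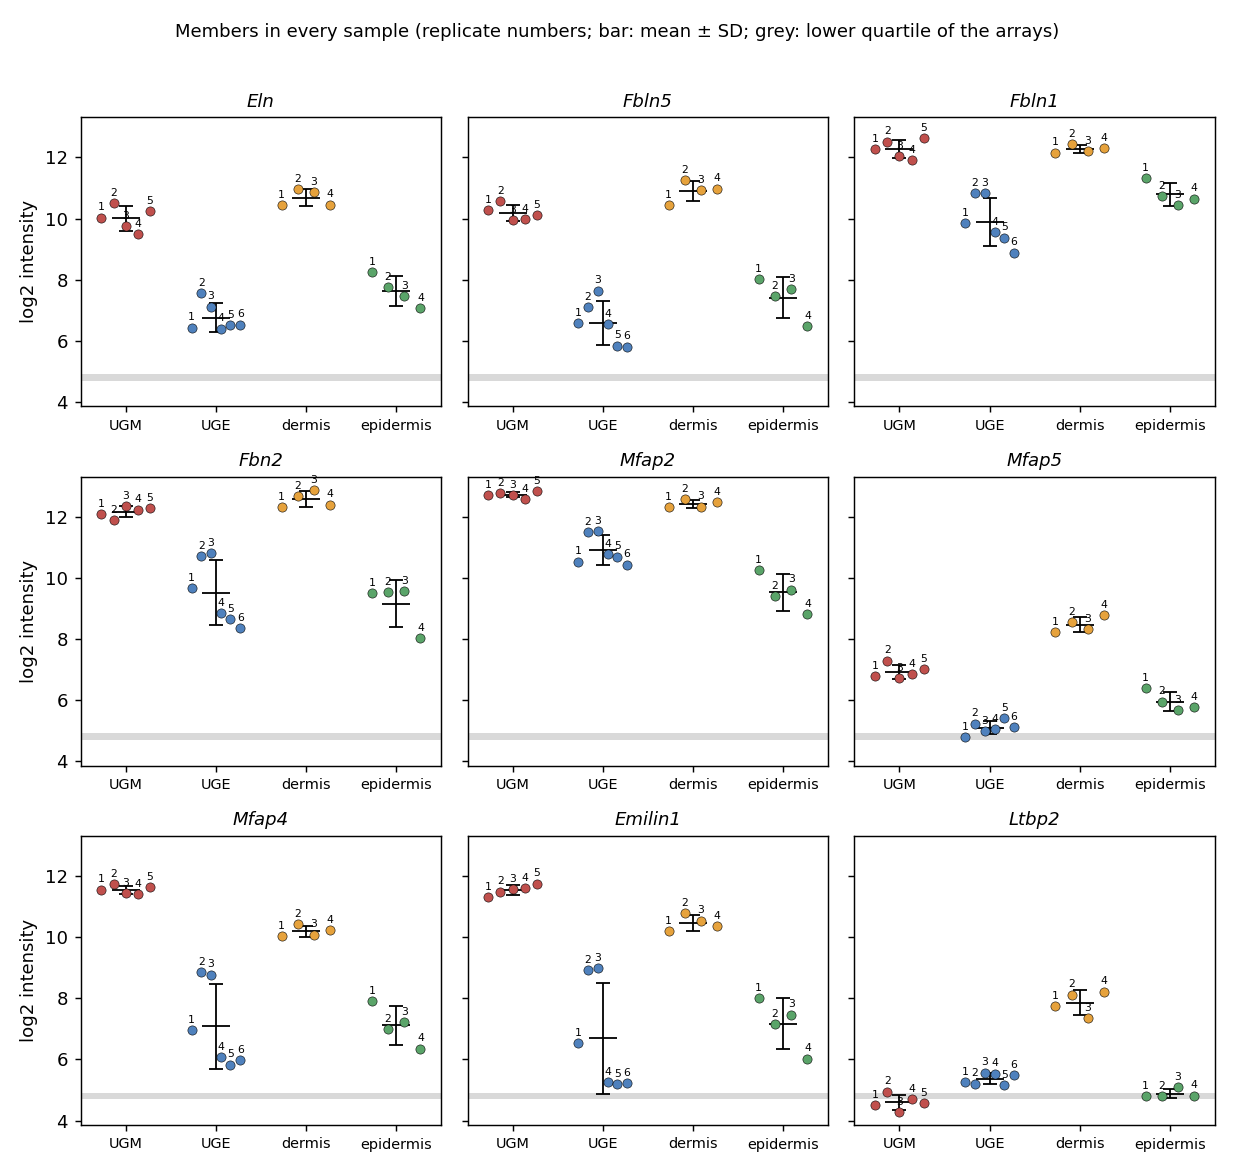
log2 intensity (y axis) of the 9 genes in each of the 19 samples, by tissue (x axis); numbers are replicates, bars are mean ± SD, and the grey band is the range of the lower quartiles of the arrays (4.70 to 4.92). Mesenchymal samples lie above epithelial samples of the same site for every gene but Ltbp2, whose UGM samples lie at 4.29 to 4.95, in, below or just above the band, and UGE replicates 2 and 3 lie high for Emilin1 and Mfap4.

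Eln encodes tropoelastin, the elastic polymer itself. It lay at 10.03, 10.51, 9.75, 9.49 and 10.24 in UGM replicates 1 to 5, and in UGE between 6.41 and 7.57 with a median of 6.53. In dermis replicates 1 to 4 it lay at 10.45, 10.97, 10.86 and 10.46, against 8.26, 7.75, 7.47 and 7.07 in epidermis replicates 1 to 4. Every mesenchymal sample was above every epithelial sample. Eln was higher in UGM than in UGE by 3.24 ± 0.24 (9.42-fold, adjusted p = 4.37e-07) and in dermis than in epidermis by 3.05 ± 0.24 (8.28-fold, adjusted p = 1.33e-05). The order of the tissues was dermis, UGM, epidermis and UGE. The ranges of dermis and UGM overlap, as do those of epidermis and UGE.

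Fbln5 and Fbln1 are fibulins. Fbln5 binds tropoelastin and brings it to the microfibrils, and is needed for elastic fibres in mice. It lay at 10.27, 10.58, 9.94, 9.99 and 10.10 in UGM, against 5.82 to 7.65 in UGE (median 6.58). Dermis lay at 10.44, 11.25, 10.93 and 10.98, against 8.02, 7.46, 7.70 and 6.48 in epidermis. Its pattern was close to that of Eln, with the same order of tissues and the same overlaps. The differences were 3.58 ± 0.30 in the urogenital sinus (11.9-fold, adjusted p = 1.28e-06) and 3.49 ± 0.30 in the skin (11.2-fold, adjusted p = 2.38e-05).

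Fbln1 lies in elastic fibres and in basement membranes. It lay at 12.27, 12.51, 12.04, 11.92 and 12.64 in UGM, and between 8.89 and 10.84 in UGE with a median of 9.71. Dermis samples lay at 12.15, 12.43, 12.21 and 12.30, against 11.33, 10.72, 10.45 and 10.65 in epidermis. Its difference in the skin, 1.49 ± 0.18 (2.80-fold, adjusted p = 1.52e-04), was the smallest of the 9 genes there, beside 2.39 ± 0.34 in the urogenital sinus (5.23-fold, adjusted p = 1.14e-04). UGM and dermis had nearly the same mean, 12.28 ± 0.30 (SD, n = 5) and 12.27 ± 0.12 (n = 4). The call in the skin ends when the 3 probe sets of Fbln1 are averaged, which gives 0.80 (adjusted p = 0.00173).

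Fbn2 encodes a fibrillin of developing tissue, a subunit of the microfibril itself. It lay at 12.07, 11.88, 12.33, 12.23 and 12.27 in UGM, and between 8.35 and 10.81 in UGE with a median of 9.26. Its dermis levels were 12.30, 12.68, 12.87 and 12.39, and in epidermis at 9.51, 9.53, 9.57 and 8.02. Epidermis replicate 4 was clearly lower than the other epidermis samples, and UGE replicates 2 and 3, at 10.70 and 10.81, were the highest of UGE. Fbn2 was higher in UGM by 2.65 ± 0.43 (6.29-fold, adjusted p = 3.44e-04) and in dermis by 3.40 ± 0.33 (10.6-fold, adjusted p = 4.14e-05). Its second probe set gave 2.88 ± 0.34 and 3.82 ± 0.23.

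Mfap2 and Mfap5 encode the small microfibril-associated glycoproteins MAGP-1 and MAGP-2, which bind fibrillin. Mfap2 lay at 12.70, 12.77, 12.70, 12.58 and 12.83 in UGM, and between 10.43 and 11.53 in UGE with a median of 10.73. In dermis it lay at 12.30, 12.56, 12.33 and 12.46, against 10.25, 9.40, 9.61 and 8.82 in epidermis. The 4 tissues ran in the order UGM, dermis, UGE and epidermis, and no neighbours in this order overlapped. Mfap2 was higher in UGM than in UGE by 1.81 ± 0.20 (3.50-fold, adjusted p = 1.65e-05) and in dermis than in epidermis by 2.89 ± 0.25 (7.43-fold, adjusted p = 2.36e-05).

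Mfap5 ran in another order, dermis, UGM, epidermis and UGE, again with no overlap between neighbours. It lay at 6.78, 7.30, 6.73, 6.84 and 7.01 in UGM, against 4.79 to 5.42 in UGE (median 5.09), close to the lower quartile of the arrays. In dermis it lay at 8.22, 8.56, 8.33 and 8.78, and in epidermis at 6.39, 5.96, 5.69 and 5.78. The differences were 1.83 ± 0.13 (adjusted p = 3.23e-07) in the urogenital sinus and 2.52 ± 0.18 (5.72-fold, adjusted p = 8.20e-06) in the skin. The level of Mfap5 in UGE was not shown to lie above background, so the size of the urogenital sinus difference rests on that level, and it was 1.03 with 50 added before log2.

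Mfap4, a glycoprotein of the fibrinogen-related family that is bound to elastic fibres, and Emilin1, which sits between elastin and the microfibrils, were the genes with the largest differences in the urogenital sinus. Mfap4 lay at 11.55, 11.72, 11.44, 11.39 and 11.62 in UGM, against 6.95, 8.86, 8.77, 6.08, 5.83 and 5.98 in UGE replicates 1 to 6. In dermis it lay at 10.02, 10.41, 10.08 and 10.23, and in epidermis at 7.91, 6.99, 7.21 and 6.35. UGE replicates 2 and 3 stood above the other UGE samples, and replicate 1 lay between. Mfap4 was higher in UGM than in UGE by 4.47 ± 0.56 (22.1-fold, adjusted p = 4.10e-05) and in dermis than in epidermis by 3.07 ± 0.27 (8.38-fold, adjusted p = 2.73e-05).

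Emilin1 showed the same split of UGE more strongly. It lay at 11.31, 11.48, 11.56, 11.60 and 11.75 in UGM, against 6.54, 8.92, 8.97, 5.26, 5.18 and 5.23 in UGE replicates 1 to 6. In dermis it lay at 10.19, 10.79, 10.53 and 10.36, and in epidermis at 8.01, 7.15, 7.46 and 6.03. Its differences were 4.85 ± 0.72 (28.9-fold, adjusted p = 1.84e-04) and 3.30 ± 0.35 (9.88-fold, adjusted p = 7.91e-05). The mesenchymal markers had medians of 7.30, 8.68, 8.88, 5.82, 5.73 and 5.74 in UGE replicates 1 to 6, high in the same samples. Without UGE replicates 2 and 3 the UGM minus UGE differences were 5.34 ± 0.20 for Mfap4 and 5.98 ± 0.25 for Emilin1. The part of mesenchymal cells in the UGE levels was not tested.

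Ltbp2, a latent TGF-β binding protein that joins microfibrils but does not bind latent TGF-β, stood apart from the other members. It lay at 4.51, 4.95, 4.29, 4.70 and 4.57 in UGM, against 5.17 to 5.57 in UGE with a median of 5.37. In dermis it lay at 7.75, 8.12, 7.35 and 8.22, and in epidermis at 4.81, 4.81, 5.09 and 4.82. Dermis alone was clearly above the lower quartile of the arrays, and all 5 UGM samples lay below all 6 UGE samples. Ltbp2 was higher in dermis than in epidermis by 2.98 ± 0.18 (adjusted p = 4.87e-06), and by 1.83 with 50 added before log2. In the urogenital sinus it lay at -0.76 ± 0.13 (adjusted p = 4.17e-04), which is less than 2-fold and was not called. The levels in UGM, UGE and epidermis were not shown to lie above background, so the sizes of these differences are uncertain and no fold is given.

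**Figure D2:**
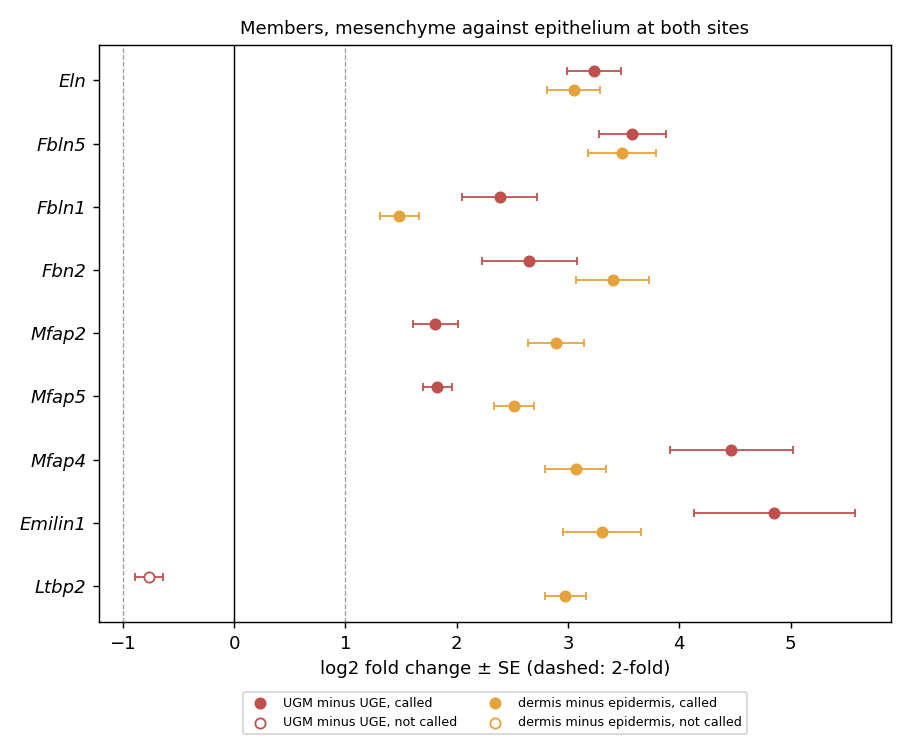
log2 fold change ± SE (x axis) of the 9 genes (y axis) for UGM minus UGE (red, n = 5 and 6) and dermis minus epidermis (orange, n = 4 and 4); filled points are called and open points are not. All points but the UGM minus UGE point of Ltbp2 (-0.76) lie right of the 2-fold line.

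The compartment differences of the 2 sites were compared in 1 fit of all 19 samples, as UGM minus UGE, minus dermis minus epidermis. Ltbp2 was called, at -3.74 ± 0.22 (adjusted p = 6.20e-10) and at -2.13 with 50 added before log2, a size that rests on 3 groups not shown to lie above background. It was the only gene of the 9, where 4.17% of all probe sets were called above 0 and 5.15% below 0 (9.31% in all). Mfap2 (-1.08 ± 0.34, adjusted p = 0.0301) and Mfap5 (-0.69 ± 0.22, adjusted p = 0.0368) did not pass the threshold. Mfap2 passed without epidermis replicate 1 (-1.33, adjusted p = 0.00395), and lay at -0.78 ± 0.27 (adjusted p = 0.0519) without UGE replicates 2 and 3. The second probe set of Mfap5 passed with all samples (-1.69 ± 0.36, adjusted p = 0.00214). On that probe set the UGE samples lay at 4.55 to 5.32, not shown to lie above background, so its size is uncertain. Emilin1 (1.55 ± 0.95), Mfap4 (1.40 ± 0.73) and Fbln1 (0.90 ± 0.44) lay on the other side and were not called. Without UGE replicates 2 and 3 the values were 2.68 ± 0.46, 2.27 ± 0.36 and 1.37 ± 0.29, past the threshold. Those samples were left out for their mesenchymal transcripts and are high for these genes too, while all epidermis samples were kept, so these values are a description and no test of a difference between the sites.

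Between the mesenchymes, Ltbp2 and Mfap5 were lower in UGM than in dermis and no member was called higher. Ltbp2 differed by -3.25 ± 0.16 (adjusted p = 1.22e-11) and Mfap5 by -1.54 ± 0.16 (adjusted p = 4.04e-07), and for both the groups did not overlap. With 50 added before log2 Ltbp2 differed by -1.93, and the second probe set of Mfap5 by -2.44. These are 2 of 9 genes, where 5.37% of all probe sets were called lower in UGM and 12.2% in either direction. The groups did not overlap for 5 of the 9 genes, against 35.6% of all probe sets, and the median over the 9 genes was -0.40, against -0.05 over all. Skeletal muscle markers moved with these genes: 9 of 9 were lower in UGM, and their summed intensity was 1222 to 3816 in UGM against 15093 to 30548 in dermis. Adipocyte markers did so too, with 2 of 3 lower in UGM and sums of 419 to 794 in UGM against 2991 to 5444 in dermis. Upper epidermis markers were lower in UGM for 6 of 6 genes (sums of 1681 to 2092 in UGM against 26713 to 79016 in dermis), and macrophage markers for 3 of 6 (2600 to 4036 in UGM against 5919 to 6866 in dermis). The part of these cells in the levels of Ltbp2 and Mfap5 was not tested.

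Mfap4 and Emilin1 lay higher in UGM than in dermis without overlap, by 1.36 ± 0.53 (adjusted p = 0.0508) and 1.07 ± 0.69 (adjusted p = 0.241), and neither was called. The spread in that fit is shared by all 4 groups and holds the wide spread of UGE. In a fit of UGM and dermis alone both were called, with standard errors of 0.11 (adjusted p = 2.91e-06) and 0.13 (adjusted p = 8.56e-05). The second probe set of Emilin1 lay closer, with means of 8.27 in UGM and 7.72 in dermis. Over the alternatives the difference of Emilin1 fell as low as 0.81, under 2-fold. Smooth muscle markers ran the same way: 5 of 9 were higher in UGM than in dermis, with sums of 19524 to 22477 in UGM against 5251 to 7239 in dermis. Neuronal markers did so more strongly, with 5 of 5 higher in UGM (median log2 fold change 6.65) and sums of 18606 to 24559 in UGM against 517 to 830 in dermis. Over all probe sets 6.78% were called higher in UGM. The part of either cell type in the levels of Mfap4 and Emilin1 was not tested. Eln (-0.68 ± 0.27), Fbln5 (-0.72 ± 0.34), Fbn2 (-0.40 ± 0.44), Mfap2 (0.30 ± 0.25) and Fbln1 (0.00 ± 0.32) were not called between UGM and dermis in either fit.

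**Figure D3:**
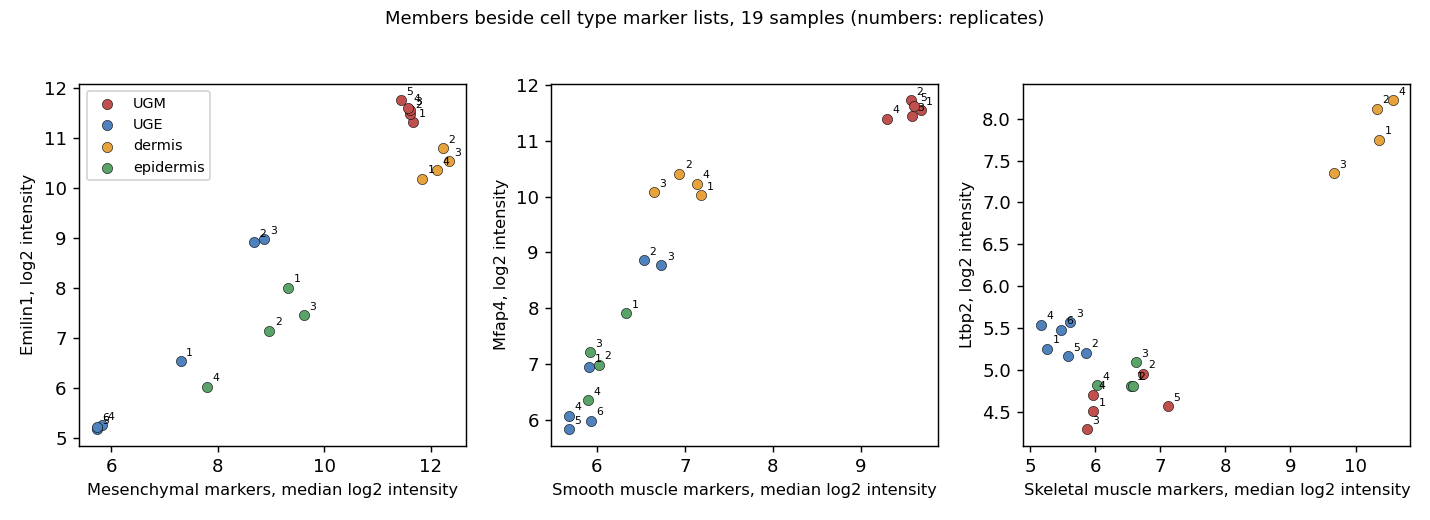
log2 intensity (y axes) of Emilin1, Mfap4 and Ltbp2 against the median log2 intensity of mesenchymal, smooth muscle and skeletal muscle markers (x axes) in the 19 samples, coloured by tissue and numbered by replicate. UGE replicates 2 and 3 lie right of and above the other UGE samples for Emilin1 (8.92 and 8.97), UGM lies apart at the upper right for Mfap4, and the 4 dermis samples lie apart for Ltbp2 (7.35 to 8.22).

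Between the epithelia, Mfap2 was higher in UGE than in epidermis by 1.39 ± 0.24 (2.62-fold, adjusted p = 1.15e-04), with 10.91 ± 0.49 in UGE (SD, n = 6) and 9.52 ± 0.59 in epidermis (n = 4). It was the only member called of 9, where 6.98% of all probe sets were called higher and 5.01% lower (12% in all), and the methods' t-test did not call it (adjusted p = 0.0187). Mfap5 lay lower in UGE without overlap, at -0.85 ± 0.16 (adjusted p = 2.36e-04), less than 2-fold. Its level in UGE was not shown to lie above background, and the difference was -0.94 to -0.41 over the alternatives. The groups did not overlap for Mfap2, Mfap5 and Ltbp2, 3 of the 9 genes, against 24.3% of all probe sets. Ltbp2 lay at 0.49, with neither group shown to lie above background. Over all probe sets 13.3% lay higher and 11% lower in UGE without overlap. Eln (-0.87 ± 0.26, adjusted p = 0.0120), Fbln1 (-0.90 ± 0.31, adjusted p = 0.0282) and Fbln5 (-0.82 ± 0.32, adjusted p = 0.0564) were not called. Calls between the epithelia changed with the samples left out. Without UGE replicates 2 and 3, Eln (-1.16), Fbln1 (-1.37), Fbln5 (-1.21) and Emilin1 (-1.61) were called lower in UGE. Mfap2, which was highest of UGE in those replicates, then differed by 1.08 ± 0.20 and was still called higher. Since these samples were left out for their high mesenchymal transcripts, this is a description. Without replicate 2 alone Eln (-1.03) and Fbln1 (-1.08) were called, without replicate 3 alone Fbln1 (-1.08) and Fbln5 (-1.03), and without epidermis replicate 4 Eln (-1.06). Mesenchymal markers were lower in UGE than in epidermis for 6 of 13 genes.

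**Figure D4:**
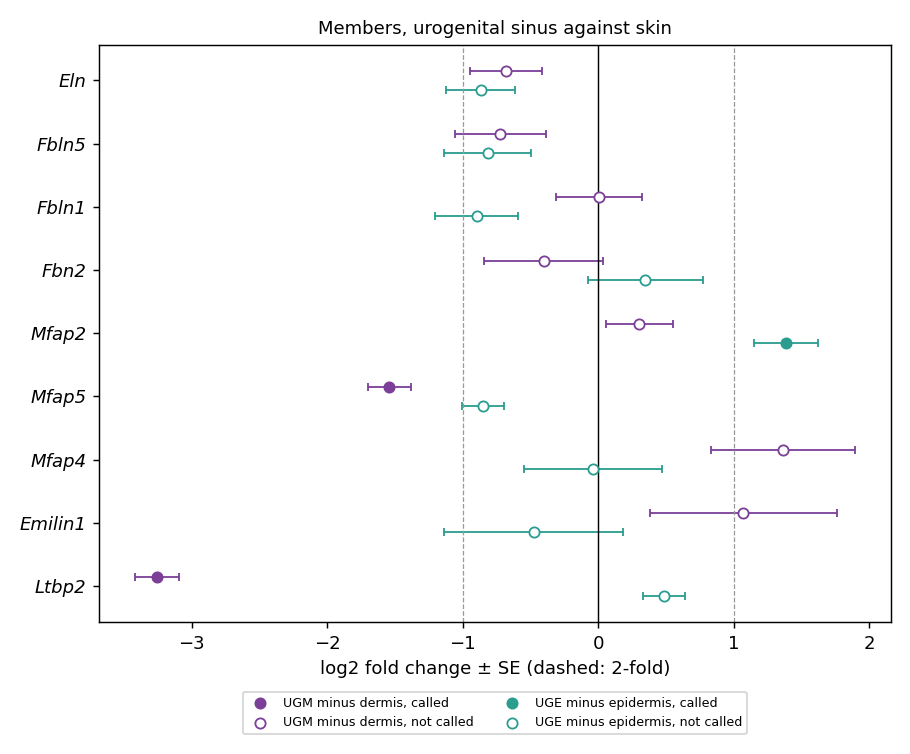
log2 fold change ± SE (x axis) of the 9 genes (y axis) for UGM minus dermis (purple, n = 5 and 4) and UGE minus epidermis (teal, n = 6 and 4), from 1 fit of all 4 groups; filled points are called and open points are not. Ltbp2 (-3.25) and Mfap5 (-1.54) are the called points for UGM minus dermis, and Mfap2 (1.39) is the called point for UGE minus epidermis.

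Other probe sets of the same genes were read as a check. Of the 17 probe sets 13 were called higher in UGM and 12 in dermis, and 0 were called lower. Over all probe sets 7.4% and 7.6% were called higher. Second probe sets of Mfap2 (1.08 ± 0.16 and 1.96 ± 0.18) and Mfap5 (1.23 ± 0.19 and 2.92 ± 0.29) were called in both comparisons. That of Emilin1 gave 1.51 ± 0.20 in the urogenital sinus and 0.95 ± 0.12 in the skin, and the value in the skin is under 2-fold. The dimmer probe sets of Fbln1 had means of 8.19 and 7.64 in dermis against 7.50 and 7.43 in epidermis, under 2-fold. In UGM their means were 7.83 and 7.59, against 6.58 and 7.04 in UGE. On each of them the groups overlapped at both sites. The dimmer probe set of Eln gave 0.47 ± 0.14 and 0.35 ± 0.13 and was not called. Its samples lay between 6.35 and 7.38 on all arrays, a far narrower range than that of the brighter one. The dimmer probe set of Fbln5 lay at 4.44 to 4.99 on all arrays, at the lower quartile, and gave 0.00 ± 0.10 and 0.13 ± 0.12. With the mean over a gene's probe sets the calls in the urogenital sinus held at smaller sizes, 1.85 for Eln, 1.79 for Fbln5, 1.40 for Fbln1 and 3.18 for Emilin1. In the skin Eln (1.70), Fbln5 (1.81) and Emilin1 (2.13) were called, and Fbln1 was not. Probe sets of 1 gene can read different transcripts, so which of them reads the gene best is not settled by these data.

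Promoter sequences are shown for 3 genes that were called in both mesenchymes, Fbln5, Fbln1 and Mfap2, and for Ltbp2, which was called in dermis alone, so that these can be set side by side. They are RefSeq sequence of GRCm38.p6, the bases before the annotated start that lie outside the gene, in the direction of the gene. The table of promoters held 6 of the 10 genes. Capitals mark matches on either strand to TATAAA, to the GC box GGGCGG, to the SMAD box CAGAC, to the MCAT motif CATTCC, to the AP-1 motif TGANTCA or to the CArG box of serum response factor.
Fbln5: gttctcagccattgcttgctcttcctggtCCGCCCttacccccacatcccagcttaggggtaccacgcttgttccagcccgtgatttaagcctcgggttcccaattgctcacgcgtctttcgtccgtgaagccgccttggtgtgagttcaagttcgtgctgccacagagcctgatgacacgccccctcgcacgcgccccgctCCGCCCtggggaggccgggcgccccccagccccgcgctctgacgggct
Fbln1: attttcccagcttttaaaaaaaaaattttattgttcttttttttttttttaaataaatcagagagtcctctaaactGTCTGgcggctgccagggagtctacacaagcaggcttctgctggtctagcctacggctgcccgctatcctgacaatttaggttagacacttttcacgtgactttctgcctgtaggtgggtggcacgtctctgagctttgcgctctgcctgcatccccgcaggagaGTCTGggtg
Mfap2: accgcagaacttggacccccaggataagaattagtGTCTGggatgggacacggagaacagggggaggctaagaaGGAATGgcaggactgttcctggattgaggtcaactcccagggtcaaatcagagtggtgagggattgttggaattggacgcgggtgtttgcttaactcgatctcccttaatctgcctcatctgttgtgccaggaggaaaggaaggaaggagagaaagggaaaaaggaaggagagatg
Ltbp2: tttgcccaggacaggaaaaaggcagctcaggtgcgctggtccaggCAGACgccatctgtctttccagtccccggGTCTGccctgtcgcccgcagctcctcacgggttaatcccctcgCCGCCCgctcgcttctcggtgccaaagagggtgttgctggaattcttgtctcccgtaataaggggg

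These are chr12:101819120-101819369 on the minus strand for Fbln5, chr15:85205699-85205948 on the plus strand for Fbln1, chr4:141010174-141010423 on the plus strand for Mfap2 and chr12:84876559-84876741 on the minus strand for Ltbp2. Fbln5 holds 2 GC boxes, a motif found in 32.7% of 32851 promoter windows of 250 bases. Fbln1 holds 2 SMAD boxes and Mfap2 holds 1, a motif found in 42.2% of such windows, and Mfap2 also holds 1 MCAT motif (12.6%). The 183 bases of Ltbp2 hold 2 SMAD boxes and 1 GC box, found in 33.6% and 21.5% of windows of that length. No motif was shared by all 4 sequences. A match is a description of the letters and not a site of binding.

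Further genes were read from a list of 29, and 25 of these could be tested. The list holds genes of elastic fibre assembly and turnover and family relatives of the members, together called other elastic fibre genes here. This list too was chosen with earlier results of these data known. Between UGM and UGE 13 were called higher and 1 lower, where 7.4% of all probe sets were higher and 5.85% lower. Between dermis and epidermis 14 were called higher and 0 lower, against 7.6% and 6.07% of all probe sets. The medians were 1.16 and 1.07, against -0.06 and -0.05 over all probe sets. Of the lysyl oxidases, which cross-link tropoelastin, Lox differed by 5.30 ± 0.28 between UGM and UGE (39.5-fold, adjusted p = 2.26e-08) and between dermis and epidermis by 3.44 ± 0.27 (10.8-fold, adjusted p = 1.39e-05). Loxl1 was higher by 2.79 ± 0.56 and 3.58 ± 0.35, and its call in the urogenital sinus ends with the replicate number as a block (adjusted p = 0.0122). Loxl3 was higher in UGM (2.14 ± 0.23) and lay at 0.94 ± 0.15 in the skin, and Loxl4 was called in neither comparison. With the mean over a gene's probe sets the difference between UGM and UGE was 3.06 for Lox and 1.72 for Loxl1, both still called.

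All 4 other fibulins read were higher in both mesenchymes. Hmcn1, the large fibulin hemicentin, differed by 4.24 ± 0.34 and 3.80 ± 0.37, Fbln2 by 2.76 ± 0.32 and 2.67 ± 0.20 (1.49 and 1.28 with the mean over its probe sets), and Efemp1 by 1.82 ± 0.15 and 2.32 ± 0.18. Fbln7 differed by 1.16 ± 0.16 and 1.18 ± 0.21, with group means of 4.14 in UGE and 4.29 in epidermis, under the lower quartile of the arrays, and both calls end with 50 added before log2 (0.41 and 0.45). The methods' t-test did not call Fbln7 in the skin either (adjusted p = 0.0153). Emilin2 (2.59 ± 0.40 and 3.57 ± 0.21), Emilin3 (3.16 ± 0.37 and 2.09 ± 0.26) and Mmrn1 (1.91 ± 0.15 and 4.08 ± 0.20), relatives of Emilin1, were higher in both mesenchymes. The other relative read, Mmrn2, was called higher in dermis (1.23) but was not called between UGM and UGE. Mmrn1, a multimerin of platelets and endothelium, lay at 6.42 in UGM, 4.51 in UGE, 9.53 in dermis and 5.45 in epidermis. Its UGE mean is under the lower quartile of the arrays, and its call between UGM and UGE ends with 50 added before log2 (0.90). Among 8 endothelial markers 8 were higher in UGM than in UGE and 8 in dermis than in epidermis, with sums of 2134 to 2987 in UGM, 468 to 751 in UGE, 3705 to 5240 in dermis and 607 to 805 in epidermis.

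The other latent TGF-β binding proteins were read beside Ltbp2. Ltbp1 was called higher in UGM (1.65 ± 0.34, adjusted p = 0.00226) and in dermis (2.96 ± 0.22, adjusted p = 1.12e-05), with 1.05 and 1.10 for the mean over its probe sets, while Ltbp2 was called in dermis alone. Ltbp3 lay at 0.86 ± 0.23 in the urogenital sinus and was called in the skin (1.06 ± 0.14), a call that ends without epidermis replicate 3 (0.97) or with the mean over its probe sets (0.53), and turns to -0.51 with its most variable probe set. Ltbp4 was called in neither (0.85 ± 0.21 and 0.68 ± 0.17). Between the mesenchymes Ltbp3 (1.19 ± 0.22) and Ltbp4 (1.07 ± 0.21) were higher in UGM than in dermis, the direction opposite to Ltbp2, and the call of Ltbp4 ends without UGM replicate 2 (0.90).

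Of 6 ADAMTS and ADAMTSL genes tied to microfibrils, Thsd4 differed by 2.25 ± 0.26 in the urogenital sinus and 2.92 ± 0.26 in the skin, both called higher (1.25 and 1.53 with the mean over its probe sets), and Adamts10 in dermis (1.07 ± 0.16), a call that ends without epidermis replicate 3 (0.98) or dermis replicate 3 (0.97), with quantile normalization (0.998), with 50 added (0.85) and with the mean over its probe sets (0.65). The other 4 were called in neither comparison. Of 4 proteases known to cut elastin, Mmp2 was higher in UGM than in UGE (3.17 ± 0.40, adjusted p = 4.79e-05) and lay at 0.68 ± 0.15 in the skin. Mmp7, a protease of epithelia, was lower in UGM than in UGE (-2.20 ± 0.21, adjusted p = 4.95e-06), at 6.59 in UGM and 8.79 in UGE. Mmp9 and Elane were called in neither.

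**Figure D5:**
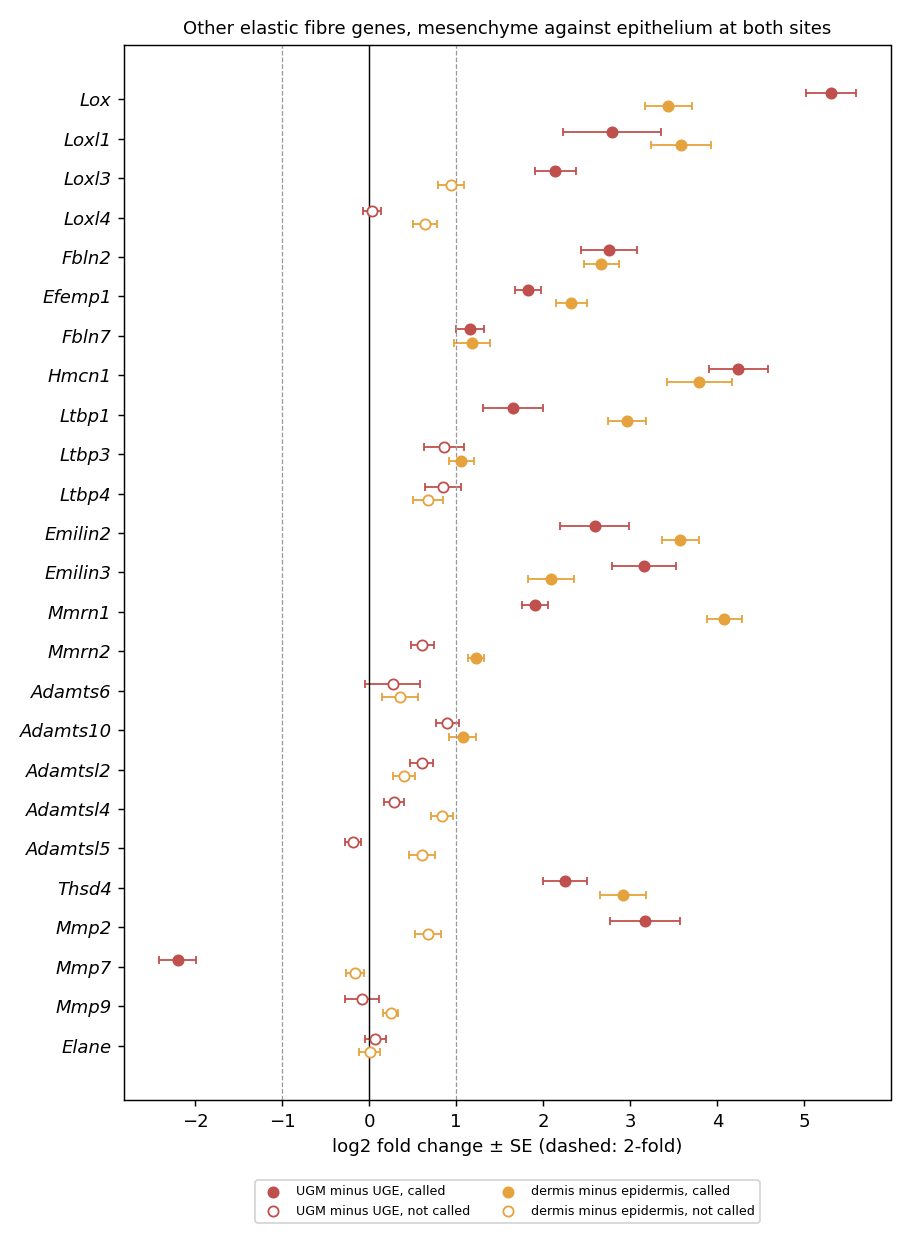
log2 fold change ± SE (x axis) of 25 other elastic fibre genes (y axis) for UGM minus UGE (red, n = 5 and 6) and dermis minus epidermis (orange, n = 4 and 4); filled points are called and open points are not. Lox has the point farthest right (5.30) and Mmp7 is the called point left of 0 (-2.20).

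As a description, the genes whose log2 values were most like each member over the 19 samples were listed by Pearson's r. For Eln they were Glipr2 (0.991), Svep1 (0.991) and Kcnj8 (0.990), and for Fbln5 Glipr2 (0.990), Flnc (0.989) and Reck (0.988). For Mfap4 they were Tgm2 (0.991), Acta2 (0.991) and Snhg18 (0.990), and for Emilin1 Arhgef25 (0.990), Pdgfra (0.988) and Acta2 (0.988). Fbn2 was nearest to P3h3 (0.985), Col4a2 (0.983) and Serping1 (0.979), and Fbln1 to Islr (0.973), Bgn (0.973) and Mest (0.971). Mfap2 was nearest to Dlc1 (0.985), Ccdc102a (0.982) and Slc43a3 (0.979), and Mfap5 to Slc29a1 (0.985), Lrrc17 (0.984) and Plek (0.983). Ltbp2 was nearest to Dock2 (0.965), Slc7a10 (0.965) and Cd200r4 (0.959). The 19 samples fall into 4 tissues, and any gene with the same split of tissues has a high r.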

How the data were processed

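RNA of UGM, UGE, dermis and epidermis was read on MOE430 2.0 arrays. The deposited values are linear intensity per probe set, and the authors had put the arrays on 1 scale. The study's methods name GCOS 1.4, MAS5 and PLIER, without saying which made this table. Precision is limited by the number of arrays. Values run from 7.40 to 33141 and array medians from 75.9 to 81.4, and 0 pairs of arrays were identical. They were taken to log2 as they stand. The table has 45101 probe sets, 64 of them controls, which were dropped, and the filter asked for over 20 in 1 sample or more (41549 probe sets). A single symbol is given for 34945 probe sets, several for 932 and none for 9160.

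Tests used lmFit and eBayes of limma 3.58.1 in R 4.3.3 (2-sided), checked on simulated data. UGM minus UGE and dermis minus epidermis were fitted on their own samples, and the comparisons between sites and the interaction on all 19. The thresholds (adjusted p under 0.01, over 2-fold) follow the methods. The filter takes only their intensity limit: they also asked for a Present call, which was not used here, so more probe sets were kept. Their unpaired t-test was run as an alternative. Further alternatives were quantile normalization, 50 added before log2, other filters, eBayes with trend and robust, other choices of probe set per gene, other samples in the fit, the replicate number as a block, and leaving out samples. The members and lists were chosen with earlier results of these data known. Named were all members, up to 3 called genes per other list with the largest change and called genes against their list, and the 3 genes most like each member. Other genes named beside a count lie outside this rule. Loxl2, Efemp2, Adamts17 and Mmp12 were not analysed here.

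Deviations from the group mean ran together in dermis and epidermis samples of the same number (r = 0.343, 0.108, 0.264 and 0.168). The same number was the best match for replicates 1 and 2 and not for replicates 3 and 4. A pairing of the skin samples is therefore possible but not settled, and the labels do not give one. The differences and adjusted p-values reported for the skin are unpaired, and the replicate number as a block was run as an alternative.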

Additional observations from a re-analysis of the deposited data

Results flagged for a closer look

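Single samples stood far from the rest of their group for 2 of 36 combinations of a member and a tissue, where chance alone gives about 1 in 20. Fbn2 lay at 8.02 in epidermis replicate 4, and the nearest other epidermis sample lay at 9.51. The mesenchymal markers were also lowest in that sample among the epidermis samples, with a median of 7.80 against 8.97 to 9.61 in the others. Ltbp2 lay at 5.09 in epidermis replicate 3, and the nearest other sample lay at 4.82, a gap that is small on the log2 scale and near the lower quartile of the arrays.

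The compartment difference differed between the sites, by limma's test of the difference over 19 samples, for Ltbp2 (-3.74, UGM minus UGE, minus dermis minus epidermis). It did so for 5 of the 25 other elastic fibre genes as well, where 9.31% of all probe sets were called. Mmrn1 (-2.17) and Mmp7 (-2.03) had the lower difference in the urogenital sinus, and Mmp2 (2.49), Lox (1.87) and Loxl3 (1.19) the higher one. Lox lost its call without epidermis replicate 3 (adjusted p = 0.0116) or dermis replicate 1 (adjusted p = 0.0108), with 50 added before log2 (1.34, adjusted p = 0.0129) and with the mean over its probe sets (0.43, adjusted p = 0.386), and Loxl3 lost it in 22 of 29 alternatives. The dermis samples carried epithelial transcripts and the UGE and epidermis samples mesenchymal ones, and the part of either in these differences was not tested.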

How the results depend on the processing

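The 8 members called higher between UGM and UGE stayed 8 under all 22 alternatives, and the 9 between dermis and epidermis stayed 8 to 9 under 18. Over 45 differences of single members, 1124 of 1174 alternative values kept direction and side of the threshold. The cause of the changes below was not tested. For UGM minus dermis 2 members were called higher with the methods' t-test and with the 2 groups alone, 1 was called higher without UGE replicates 2 and 3, and 1 was called lower with a median over 50, where Ltbp2 was not tested. For UGE minus epidermis 0 were called higher with the methods' t-test, and 4 lower without UGE replicates 2 and 3. Leaving out 1 sample gave 0 to 2 called lower. For the interaction 0 were called lower with the median filter, 2 lower with the mean over probe sets or the most variable probe set, and 3 higher without UGE replicates 2 and 3. Leaving out 1 sample gave 1 to 2 called lower.

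No reversed value was called. Fbln1 in UGM minus dermis (0.00) was -0.14 with the mean over probe sets, -0.10 without UGM replicate 2 and dermis replicate 1, and -0.087 to 0.093 with 1 sample left out. In UGE minus epidermis Mfap4 was 0.055 with 50 added, 0.36 with the replicate block and -0.39 to 0.23 with 1 sample left out, Emilin1 0.012 with the block, and Fbn2 -0.28 without UGE replicates 2 and 3 and -0.032 to 0.58 with 1 sample left out. For the interaction Eln was -0.012 with 50 added, -0.019 without UGM replicate 2 and dermis replicate 1, and -0.021 to 0.38 with 1 sample left out. Fbln5 there was -0.12 with 50 added, -0.16 without UGM replicate 2 and dermis replicate 1, -0.016 with the mean over probe sets, -0.063 with the block and -0.11 to 0.40 with 1 sample left out. Ltbp3 in the skin was -0.51 with its most variable probe set.

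With the replicate number as a block 8 and 9 members were again called, and 5264 probe sets in place of 5506 between UGM and UGE and 5904 in place of 5681 in the skin. Same-numbered UGM and UGE samples correlated at -0.406 to 0.648 in their deviations and were not taken as pairs. The value of 0.648 was that of replicate 1, where the same number was the best match. For replicates 2 to 5 it was not. A shared origin of the UGM and UGE samples of replicate 1 was not tested. The block changed the call of no member. Over all features, 50 added before log2 gave 3686, 3140 and 3296 calls for dermis minus epidermis, UGM minus dermis and UGE minus epidermis, in place of 5681, 5049 and 4984. With 1 mean value per gene 3354, 3317, 2880, 2834 and 2351 were called over the 5 comparisons, in place of 5506, 5681, 5049, 4984 and 3870. These counts are over fewer rows, since the probe sets of a gene were merged, so they cannot be compared directly. For single comparisons within a site, leaving out UGM replicate 2 with dermis replicate 1 is the same as leaving out 1 sample. The unpaired t-test was not run for the interaction.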
